A study of Mus musculus with 6 samples.

Results

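Macrophages, monocytes and dendritic cells are the mononuclear phagocytes of skin, and 37 of their genes are described here out of 18193 genes measured on the arrays. The 37 were listed by name, from cell-surface receptors and complement chains to growth factors, and all 37 were measured. Each gene was read from the probe set, the group of probes that reports one transcript, with the highest mean over the 6 arrays among those annotated to that gene alone. The samples came from wild-type mice (WT) and from mice deficient in E-FABP, the fatty acid carrier encoded by Fabp5 (EKO), for which the labels name no Cre line. Mice of both genotypes were treated for 5 months with DMBA, which initiates skin tumours, and TPA, which promotes their growth. The WT tumours are therefore treated controls, and no untreated skin is among the samples. Skin tumours of 3 mice per group were dissociated into single cells, and RNA of each was hybridised to its own array. The sources used here do not give strain, sex or age. All values are log2 values normalised with RMA, and a difference is always EKO minus WT on that scale. Values of single arrays are listed in the order of replicates 1, 2 and 3. P-values measure the spread between these samples, which the titles call biological replicates.

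Mononuclear phagocytes in skin have several origins and jobs. Resident macrophages of the dermis take up debris and make the complement protein C1q. They carry scavenger, folate and hyaluronan receptors such as CD163, FOLR2 and LYVE1. Monocytes arrive from blood through the chemokine receptor CCR2 and can become macrophages, while dendritic cells, which depend on FLT3, and the Langerhans cells of the epidermis, marked by langerin (CD207), carry antigen to lymph nodes. CSF1, a growth factor read by its receptor CSF1R, keeps most of these macrophages alive, and the transcription factor PU.1, encoded by Spi1, sets their lineage.

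Keratinocytes is the cell type named for each sample, whereas the series design speaks of tumour cells. Of 15 measured keratinocyte markers, 0 lay below the array median on all 6 arrays, and their score, the mean over the genes of each value minus the gene's mean over the 6 arrays, differed by 0.000703 between the groups. The phagocyte genes were also measured in these RNAs: only Flt3, Itgam and Cd80 lay below the median of all probe sets on all 6 arrays. The pan-leukocyte marker Ptprc read 8.80, 8.75 and 8.72 in WT and 8.98, 8.56 and 8.49 in EKO. In such bulk RNA, fewer cells of a type and less RNA per cell cannot be told apart. Fabp5 was lower in each EKO array (difference -6.69).

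Most of the 37 genes had a lower mean in EKO than in WT tumours, and none passed the test. Of the 37, 34 had a lower EKO mean (91.9%, against 9088 of 18193 genes in all) and 3, Cx3cr1, Arg1 and Cd14, a higher one. The median difference was -0.20, against 0.00014 for all genes, and the sizes stayed modest, from -0.86 for Cd163 to 0.47 for Arg1. By limma's adjusted p, with Benjamini-Hochberg adjustment over all genes, 0 of 37 passed 0.05, where 0.0055% of all genes, Fabp5 alone, did. By unadjusted p under 0.05, 9 of 37 (24.3%) were lower and 0 higher, against 3.7% and 3.44% of all genes. The 9 were Csf1, Fcgr2b, C1qc, C1qa, C1qb, F13a1, Ccr2, Ms4a7 and Cd163, with adjusted p from 0.583 to 0.665. In 7 of the 37 (18.9%) the 3 EKO values lay below the 3 WT values, namely in these 9 apart from Ccr2 and Cd163, against 6.19% of all genes. The opposite order was seen in 0 of 37, against 5.78%.

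**Figure D1:**
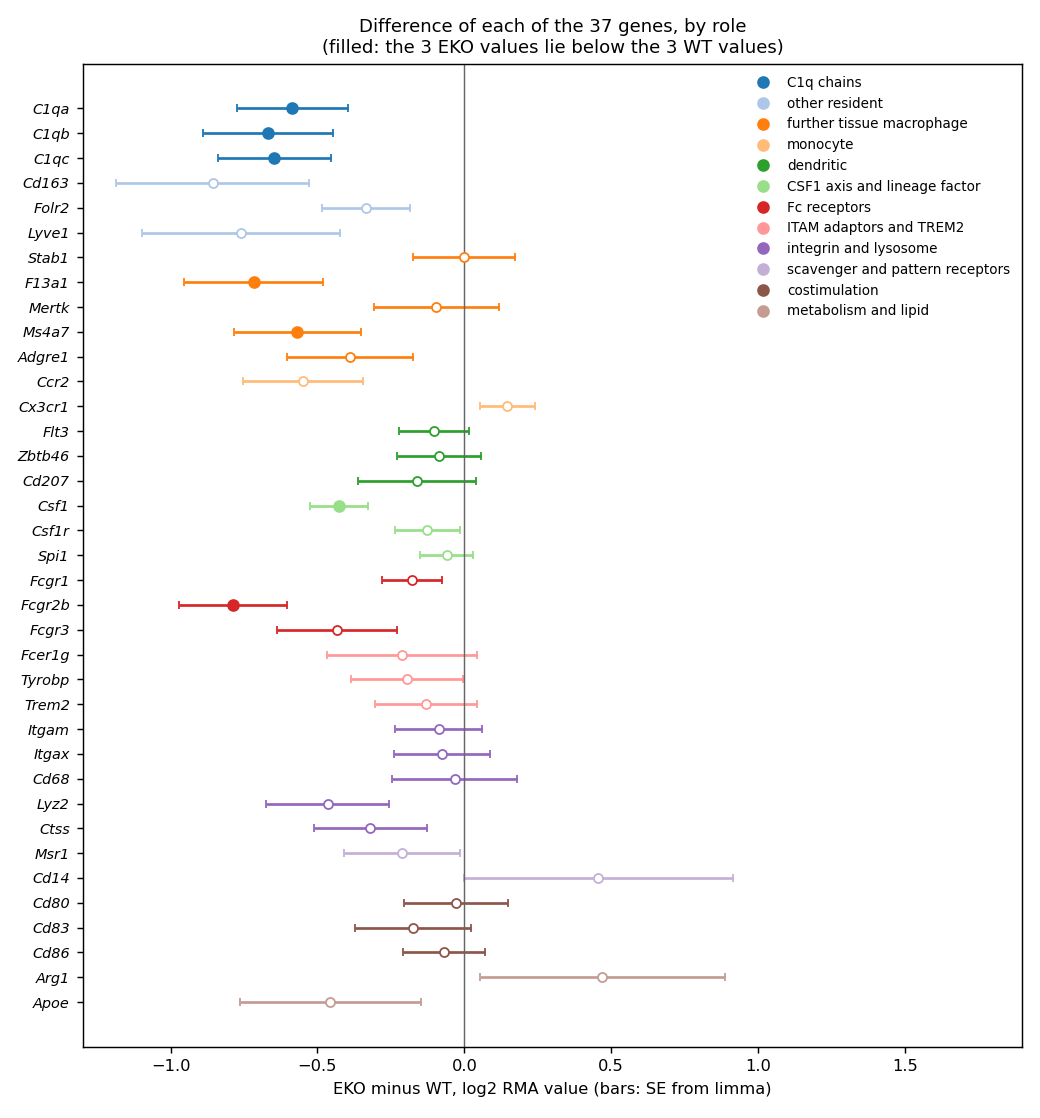
EKO minus WT difference on the log2 scale (horizontal axis) of each of the 37 genes (rows, coloured by role), with the SE from limma as bars. Filled points mark the 7 genes whose 3 EKO values lie below the 3 WT values. The C1q chains, Cd163, Lyve1, F13a1 and Fcgr2b lie farthest to the left, and 3 genes lie to the right of 0.

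The count rested in large part on WT replicate 1. That array held the highest value of 20 of the 37 genes, and EKO replicate 2 the lowest value of 19. Without WT replicate 1 only C1qc, Csf1 and Fcgr2b had an unadjusted p under 0.05, 3 of 37, where 2.13% of all genes were lower in that fit. Leaving out each of the other arrays gave from 7 to 12, against 2.89% to 4.88% of all genes. WT replicate 1 also stood apart in skeletal muscle markers, with a score of 2.23 against -1.09 and 0.46 in WT replicates 2 and 3 and -1.04 to 0.17 in the EKO arrays. With WT replicate 1 and EKO replicate 2 both left out, a choice made after seeing the data, 25 of 37 means were lower and the median was -0.12. By unadjusted p under 0.05, Csf1, Fcgr2b and Apoe were then lower and Cd14 higher, against 2.83% and 4.06% of all genes.

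The 3 chains of C1q, the recognition molecule of the classical complement pathway, had like differences, with lower EKO means. C1q is assembled from A, B and C chains, and their genes lie side by side in the mouse genome in the order C1qb, C1qc, C1qa, by the RefSeq gene table. C1qa read 9.26, 8.79 and 9.08 in WT and 8.71, 8.10 and 8.56 in EKO. C1qb read 8.69, 8.08 and 8.53 in WT and 7.85, 7.37 and 8.07 in EKO, and C1qc 7.69, 7.15 and 7.58 in WT and 6.92, 6.49 and 7.06 in EKO. In all 3 genes each EKO value lay below each WT value, replicate 2 was the lowest array of its group, and the gap between the groups was narrow. In C1qb it was smallest, WT replicate 2 (8.08) lying just above EKO replicate 3 (8.07). The differences were -0.59 (SE 0.19) for C1qa, -0.67 (SE 0.22) for C1qb and -0.65 (SE 0.19) for C1qc. By the means, C1qb was 1.59-fold and C1qc 1.57-fold higher in WT. None passed (adjusted p = 0.625, 0.625 and 0.621). The other 2 probe sets of C1qb gave -0.42, with no overlap, and -0.55, with overlap.

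The promoters of C1qb and C1qc, neighbours with like differences, and of Fcgr2b, the gene with the largest difference among those whose groups did not overlap, are shown as the 250 bases before the start site. They come from RefSeq, build GRCm38.p6, and run 5′ to 3′ on the minus strand, at chr4:136886201-136886450, chr4:136892915-136893164 and chr1:170976072-170976321. Capitals mark the letters GAGGAA, the core of PU.1 binding sites, and TGCTGA, part of the site of MAF factors, on either strand (reverse TTCCTC and TCAGCA). The matches in C1qb do not overlap.
C1qb: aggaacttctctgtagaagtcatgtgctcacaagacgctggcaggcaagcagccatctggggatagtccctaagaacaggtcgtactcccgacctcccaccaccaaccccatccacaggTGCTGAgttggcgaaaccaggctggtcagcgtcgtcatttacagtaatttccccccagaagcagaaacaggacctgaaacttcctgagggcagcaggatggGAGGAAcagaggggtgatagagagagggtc
C1qc: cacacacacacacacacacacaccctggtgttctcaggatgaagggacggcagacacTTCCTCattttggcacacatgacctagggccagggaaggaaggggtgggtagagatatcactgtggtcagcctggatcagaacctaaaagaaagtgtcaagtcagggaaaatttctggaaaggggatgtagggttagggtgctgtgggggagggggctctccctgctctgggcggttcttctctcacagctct
Fcgr2b: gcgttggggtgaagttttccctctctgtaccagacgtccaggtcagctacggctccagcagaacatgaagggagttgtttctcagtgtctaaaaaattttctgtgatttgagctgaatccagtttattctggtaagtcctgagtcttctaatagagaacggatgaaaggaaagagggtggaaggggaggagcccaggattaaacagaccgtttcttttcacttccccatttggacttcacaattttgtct
C1qb held 1 match of each motif, C1qc 1 match of GAGGAA, and Fcgr2b held neither in this window. Of the 37 genes 26 had promoters in the table, with 32 windows. GAGGAA stood in 14 of the 32 (43.8%) and in 23.3% of all 32851 windows, and TGCTGA in 9 (28.1%) and in 16.1%. A match of 6 letters is a description of the sequence and not a binding site.

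The other resident macrophage genes, Cd163, Folr2 and Lyve1, also had lower EKO means, and Cd163 and Lyve1 varied more among WT tumours than the C1q chains did. Cd163, the scavenger receptor for haemoglobin bound to haptoglobin, read 7.54, 6.79 and 8.23 in WT and 6.64, 6.49 and 6.87 in EKO. Its difference was the largest of the 37 (-0.86, SE 0.33, adjusted p = 0.665), and WT replicate 2 lay below EKO replicate 3. Without WT replicate 2 it was -1.22, and without WT replicate 3 -0.50. Folr2, folate receptor beta, read 6.95, 6.38 and 6.74 in WT and 6.45, 6.36 and 6.26 in EKO (difference -0.34, SE 0.15, adjusted p = 0.704), and only WT replicate 2 lay within the EKO range. Lyve1, a hyaluronan receptor, read 8.32, 7.40 and 7.08 in WT and 7.29, 6.55 and 6.67 in EKO (difference -0.76, SE 0.34, adjusted p = 0.704). Here WT replicate 3 was the WT array below the highest EKO value, and a second, dimmer probe set gave -0.51, with no overlap. The Lyve1 difference was -0.40 without WT replicate 1 and -1.02 without WT replicate 3, and that of Folr2 -0.21 without WT replicate 1. Lyve1 is also made by lymphatic endothelium. Of 7 measured lymphatic endothelial markers 4 had lower EKO means, with a list median of -0.0027. The differences ran from -0.77 for Reln and -0.62 for Mmrn1 to 0.37 for Tbx1. In Reln and Mmrn1, 2 of the 7, each EKO value lay below each WT value, against 6.19% of all genes. The opposite order was seen in 0 of the 7, against 5.78%. Prox1, a transcription factor that defines that cell type, lay below the lower quartile on all 6 arrays. Stab2 lay below the array median on all 6. The score of these markers ran from -0.11 to 0.29 in WT and from -0.24 to 0.03 in EKO tumours, and its part in the Lyve1 difference was not tested.

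Further genes of tissue macrophages did not all follow the C1q chains. F13a1, the A subunit of coagulation factor XIII, read 8.96, 8.19 and 9.18 in WT and 8.05, 8.07 and 8.06 in EKO. The EKO values were nearly identical (SD 0.012) while the WT values spread (SD 0.520), and WT replicate 2 lay only just above them (difference -0.72, SE 0.24, adjusted p = 0.625). Ms4a7, a membrane protein of the MS4A family, read 8.64, 8.13 and 8.22 in WT and 8.07, 7.33 and 7.89 in EKO (difference -0.57, SE 0.22, adjusted p = 0.662), with no overlap. Adgre1, which encodes the macrophage antigen F4/80, read 7.25, 6.75 and 7.19 in WT and 7.03, 6.29 and 6.70 in EKO, so that EKO replicate 1 lay within the WT range (difference -0.39, adjusted p = 0.756). Without EKO replicate 2 the difference of Ms4a7 was -0.35 and that of Adgre1 -0.20. Mertk, a receptor for apoptotic cells, and Stab1, a scavenger receptor also found on endothelium, had differences of -0.10 and -0.0015.

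The 2 monocyte receptors went in opposite directions. Ccr2, the receptor for CCL2 by which monocytes leave the marrow and enter tissue, read 7.56, 7.43 and 7.47 in WT and 7.43, 6.66 and 6.71 in EKO. EKO replicates 2 and 3 lay well below all WT arrays, while EKO replicate 1 lay at the level of WT replicate 2 (difference -0.55, SE 0.20, adjusted p = 0.659). Without EKO replicate 1 the difference was -0.80. The other 3 probe sets of Ccr2 gave -0.65, with no overlap, -0.33 and -0.03. Cx3cr1, the fractalkine receptor of patrolling monocytes and of many tissue macrophages, read 7.18, 7.34 and 7.17 in WT and 7.28, 7.44 and 7.41 in EKO. Its EKO mean was higher by a small amount (difference 0.15, SE 0.093, adjusted p = 0.781), with overlap, and a second probe set lay below the lower quartile on all 6 arrays.

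The dendritic genes had the smallest median difference of the 3 subsets. Flt3, the receptor tyrosine kinase that drives dendritic cell development, read 5.01, 5.27 and 4.84 in WT and 4.97, 4.91 and 4.93 in EKO (difference -0.10, SE 0.12). Zbtb46, a transcription factor of conventional dendritic cells, read 6.17, 6.30 and 6.02 in WT and 5.94, 5.94 and 6.36 in EKO (difference -0.09, SE 0.14). Cd207, langerin, read 7.52, 7.80 and 7.20 in WT and 7.10, 7.69 and 7.25 in EKO (difference -0.16, SE 0.20). The groups overlapped in all 3, the lowest adjusted p of the 3 was 0.879, and Flt3 lay below the array median throughout. The other 3 probe sets of Zbtb46 gave differences from 0.05 to 0.16, and 2 of them lay below the lower quartile on all 6 arrays. A wider list of dendritic and Langerhans cell genes had lower EKO means in 19 of 21 measured genes, with a median of -0.25. In 7 of the 21 each EKO value lay below each WT value, and in 1 above, against 6.19% and 5.78% of all genes. The score of this list ran from 0.05 to 0.15 in WT and from -0.21 to -0.03 in EKO, without overlap. By unadjusted p under 0.05, which held for 3.7% of all genes on the lower and 3.44% on the higher side, 4 of the 21 were lower and 1 higher. They included the chemokine Ccl17 (7.17 ± 0.287 in WT, 6.38 ± 0.141 in EKO, mean ± SD, n = 3; adjusted p = 0.546), the integrin Itgae (-0.48) and the lectin Cd209a (-0.33) on the lower side. Fscn1, an actin-bundling protein of mature dendritic cells that other cells make too, was on the higher side (0.52). The list holds genes such as Epcam and Fscn1 that are not restricted to dendritic cells.

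**Figure D2:**
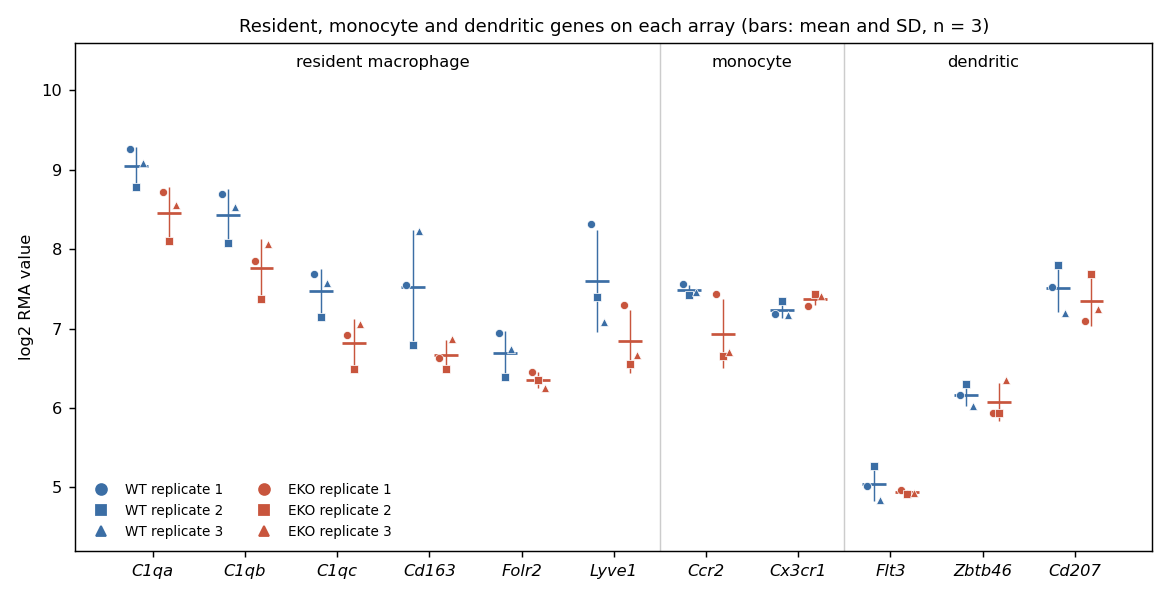
Log2 RMA value (vertical axis) of the 6 resident, 2 monocyte and 3 dendritic genes on each array, WT in blue and EKO in red, with a symbol for each replicate number and bars for the mean and SD (n = 3). The groups separate in the 3 C1q genes and overlap in the other 8.

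Set side by side, the resident genes had the largest difference, a median of -0.66 over 6 genes, against -0.20 over the 2 monocyte and -0.10 over the 3 dendritic genes. Over the 21 genes of the wider dendritic and Langerhans cell list the median was -0.25. The resident score was 0.60, -0.04 and 0.40 in WT and -0.16, -0.58 and -0.22 in EKO. WT replicate 2 stood nearest to the EKO arrays, and the groups did not overlap. The monocyte score was 0.11, 0.13 and 0.06 in WT and 0.10, -0.21 and -0.19 in EKO, and the dendritic score 0.05, 0.28 and -0.16 in WT and -0.18, 0.0010 and 0.0010 in EKO, both with overlap. Whether the resident genes differed more than the others was read within each array. The resident minus the monocyte score was 0.49, -0.17 and 0.34 in WT and -0.26, -0.37 and -0.03 in EKO, so WT replicate 2 lay within the EKO range. The resident minus the dendritic score, 0.55, -0.32 and 0.56 in WT and 0.02, -0.58 and -0.23 in EKO, also overlapped. A larger difference of the resident genes was therefore not separated from the spread between tumours. The median of the resident genes was -0.51 without WT replicate 1, -0.48 without EKO replicate 2 and -0.32 without both. The monocyte median was -0.30 without EKO replicate 1. The dendritic median was -0.20 without WT replicate 3, -0.04 without EKO replicate 1 and -0.01 without WT replicate 2.

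**Figure D3:**
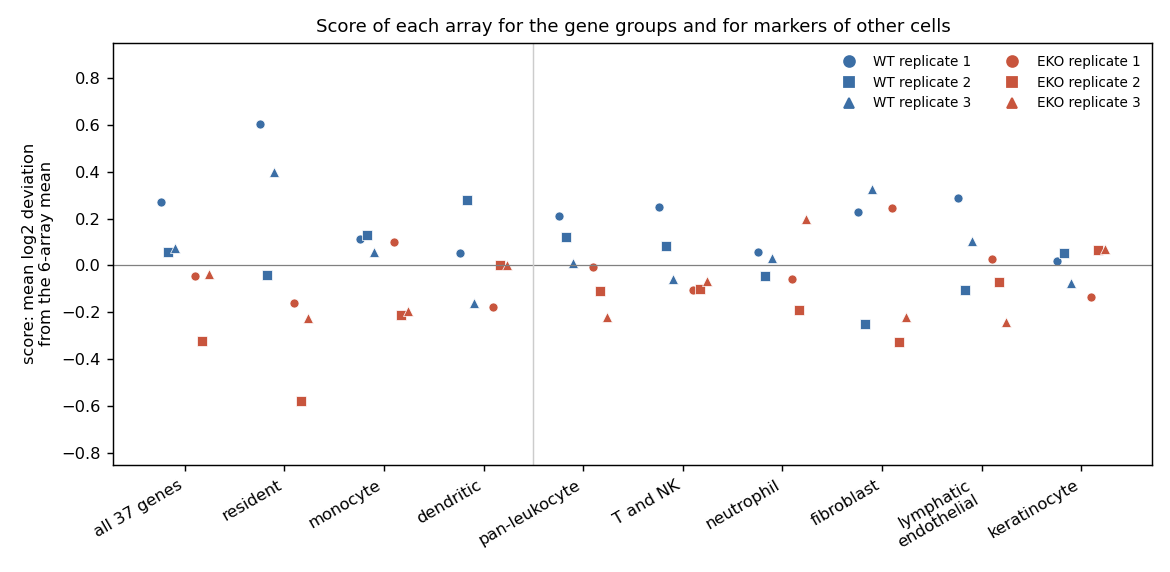
Score of each array (vertical axis: mean log2 deviation from the 6-array mean) for all 37 genes, for the resident, monocyte and dendritic genes, and, right of the grey line, for markers of leukocytes at large and of other cells. WT arrays are blue and EKO arrays red, with a symbol for each replicate number. The resident scores run from -0.04 to 0.60 in WT and from -0.58 to -0.16 in EKO tumours, while keratinocyte scores lie between -0.14 and 0.07.

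Markers of other cells moved along with some of these scores. The score of all 37 genes was 0.27, 0.06 and 0.08 in WT and -0.05, -0.32 and -0.04 in EKO. Pan-leukocyte markers had lower EKO means in 11 of 13 genes, and their score ran from 0.0087 to 0.21 in WT and from -0.22 to -0.0081 in EKO tumours. They included Itgb2, the beta 2 integrin of leukocytes (-0.48), Cd48 (-0.54), Ikzf1 (-0.42) and Cd52 (-0.37), with adjusted p from 0.546 to 0.675, and 0 of the 13 passed. Neither the pan-leukocyte score nor that of the 37 genes overlapped between the groups. Within each array, the score of the 37 genes minus the pan-leukocyte score did overlap. It was 0.06, -0.06 and 0.07 in WT and -0.04, -0.21 and 0.18 in EKO. A lower score of the 37 genes was therefore not set apart from that of leukocyte markers at large. T and NK cell markers were lower in 11 of 12 genes. Their scores ran from -0.0591 to 0.25 in WT and from -0.10 to -0.0645 in EKO, narrowly without overlap. Fibroblast markers were lower in 7 of 10, with scores of 0.23, -0.25 and 0.33 in WT and 0.25, -0.33 and -0.22 in EKO. In fibroblast as in resident genes, replicate 2 was the lowest array of each group. Neutrophil and mast cell markers were lower in 6 of 9 and 7 of 9, and B and plasma cell markers in 3 of 8. Skeletal muscle markers were lower in 12 of 12 genes, and 0 of the 12 passed. Their scores were 2.23, -1.09 and 0.46 in WT and 0.17, -0.72 and -1.04 in EKO, with overlap. The WT arrays stood in the same order as in the resident score. Among EKO arrays replicate 1 was highest in both scores, while replicates 2 and 3 stood in opposite order. The part of these cells in the differences of the 37 genes was not tested.

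In the CSF1 axis the mean of the growth factor was lower and that of the receptor nearly the same. Csf1 read 7.80, 7.65 and 7.53 in WT and 7.28, 7.26 and 7.16 in EKO, with every EKO value below every WT value and little spread. It had the smallest p of the 37 (difference -0.43, SE 0.098, or 1.34-fold higher in WT, adjusted p = 0.583). The other 3 probe sets gave -0.30, -0.16 and -0.02, of which the first 2 showed no overlap, so the size depended on the probe set. CSF1 is made by fibroblasts, endothelium and keratinocytes as well as by macrophages. Csf1r read 10.12, 9.91 and 10.14 in WT and 10.10, 9.84 and 9.85 in EKO (difference -0.13, SE 0.11, adjusted p = 0.838), and its other probe sets gave -0.05 and -0.08. Il34, the second ligand of CSF1R and no member of the 37, had a difference of -0.49 and was named after its values were seen. Spi1 had a difference of -0.06.

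Among Fc receptors, which bind the constant part of antibodies, the inhibitory receptor differed most. Fcgr2b, which dampens signalling in B cells and macrophages, read 9.91, 9.43 and 9.64 in WT and 9.10, 8.52 and 8.99 in EKO. The groups did not overlap (difference -0.79, SE 0.18, or 1.73-fold higher in WT, adjusted p = 0.593). The 3 further probe sets at a higher signal also showed no overlap, at -0.54, -0.71 and -0.83, and the last, at 0.04, lay below the lower quartile on all 6 arrays. The name of the probe set used ends in _s_at, which marks probes that can also match related transcripts, so signal from similar Fc receptor genes is possible. Fcgr3, an activating receptor, read 8.23, 7.77 and 8.07 in WT and 7.84, 7.16 and 7.77 in EKO, with EKO replicate 1 inside the WT range and EKO replicate 3 level with WT replicate 2 (difference -0.43, SE 0.20, adjusted p = 0.709; -0.22 without EKO replicate 2). Fcgr1, the high-affinity receptor, read 5.97, 5.89 and 5.81 in WT and 5.63, 5.88 and 5.62 in EKO (difference -0.18, adjusted p = 0.761). Their signalling partner Fcer1g, the common gamma chain, had a difference of -0.21. Tyrobp, the adaptor DAP12, had one of -0.20 and Trem2, a lipid-sensing receptor that signals through it, one of -0.13.

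Among lysosomal genes the EKO means of Lyz2 and Ctss were lower, and that of Cd68 nearly the same. Lyz2, lysozyme M, read 10.41, 10.12 and 10.45 in WT and 9.90, 9.43 and 10.25 in EKO, and EKO replicate 3 overlapped the WT values (difference -0.47, SE 0.21, adjusted p = 0.704; -0.25 without EKO replicate 2). Ctss, cathepsin S, which trims the invariant chain of MHC class II, read 10.996, 10.76 and 10.72 in WT and 10.88, 10.11 and 10.54 in EKO (difference -0.32, adjusted p = 0.774). The groups overlapped through EKO replicate 1. Cd68, a lysosomal protein of macrophages, had a difference of -0.03, and the integrins Itgam (CD11b) and Itgax (CD11c) had -0.09 and -0.08, Itgam on a probe set below the array median on all 6 arrays. The costimulatory ligands Cd80, Cd83 and Cd86, which activate T cells, had differences of -0.03, -0.18 and -0.07. The scavenger receptor gene Msr1 had -0.21. Cd14, a receptor for bacterial lipopolysaccharide, read 8.31 in EKO replicate 3 and 6.38 in EKO replicate 2, a spread (SD 0.964) that exceeded its difference of 0.46. Without EKO replicate 3 the sign turned (-0.03).

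Arg1 and Apoe, enzyme and lipid carrier of tumour macrophages that epithelial cells of skin make as well, had overlapping values in the groups. Arg1, arginase 1, read 11.46, 12.41 and 11.29 in WT and 12.35, 11.40 and 12.83 in EKO. WT replicate 2 and EKO replicate 2 were thus the exceptions in their groups, and the values overlapped (difference 0.47, SE 0.42, adjusted p = 0.839). Apoe, apolipoprotein E, read 13.02, 12.59 and 13.36 in WT and 12.12, 13.18 and 12.30 in EKO (difference -0.46, SE 0.31, adjusted p = 0.802), with EKO replicate 2 among the WT values. Without EKO replicate 2 both had an unadjusted p under 0.05, Arg1 higher (0.87) and Apoe lower (-0.78), and Cd14 was then higher as well (0.94). None of the 3 passed over all genes without that array. By unadjusted p under 0.05, 4.18% of all genes were lower and 4.88% higher in that fit.

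**Figure D4:**
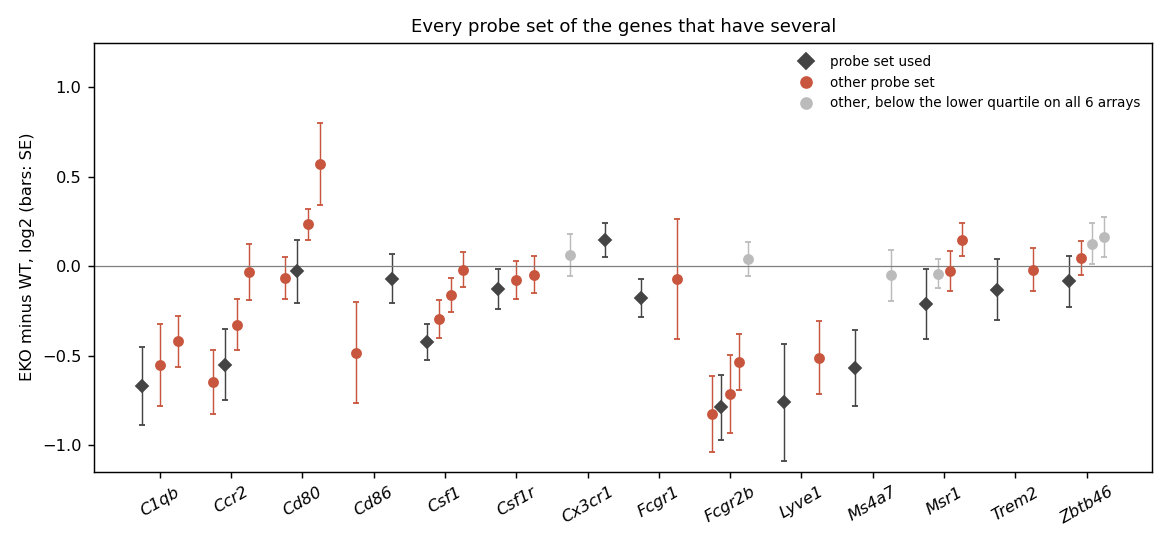
EKO minus WT difference on the log2 scale (vertical axis, with SE) for every probe set of the 14 genes that have several. Diamonds are the probe sets used, circles the others, grey where a probe set lies below the lower quartile on all 6 arrays. The probe sets of C1qb and Lyve1 lie below 0 throughout, those of Fcgr2b do so except for 1 dim probe set, and those of Cd80 lie on both sides.

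Probe sets of one gene gave a check within each array. Of the 37 genes 14 had more than 1 probe set, with 29 beyond those used, and 22 of the 29 had the same sign as the one used. Cd80 was the least settled: its other probe sets ran from -0.07 to 0.57 and lay below the lower quartile on 2 to 5 arrays. Of the 9 genes with an unadjusted p under 0.05, C1qb, Ccr2, Csf1, Fcgr2b and Ms4a7 had further probe sets. That of Ms4a7 gave -0.05 and lay below the lower quartile on all 6 arrays, so it was too dim to serve as a check.

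Other genes of mononuclear phagocytes, from a list that does not overlap the 37, split more evenly. Of 38 measured, 23 had lower EKO means and 15 higher, with a median of -0.09. By unadjusted p under 0.05 3 were lower and 1 higher, against 3.7% and 3.44% of all genes. Mrc1, the mannose receptor of resident and alternatively activated macrophages, had the smallest p, with 8.88 ± 0.446 in WT and 7.85 ± 0.267 in EKO tumours (mean ± SD, n = 3; difference -1.04, SE 0.24, adjusted p = 0.576). Clec4a2, a lectin receptor, had -0.82, and Axl, a relative of Mertk, -0.44. Fn1, fibronectin, which fibroblasts and tumour cells also make, had 0.70. Among 17 genes of interferon gamma and alternative activation 13 had lower means, but the median was -0.06. By unadjusted p under 0.05, only Mrc1 was lower and none higher, against the same 3.7% and 3.44% of all genes. Ptgs2, cyclooxygenase 2, had a difference of 1.60 with wide spread (SD 1.29 in EKO), Tgm2 had -0.50 and Cxcl10 -0.23. None of these passed over all genes.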

How the data were processed

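The 6 arrays carried biotin-labelled cRNA, 3 arrays per genotype. The deposited values are log2 signals, for which the submitters' processing notes name RMA and Partek 6.6. RMA equalises the arrays' distributions and narrows differences near the floor. Of 45101 probe sets, 64 controls were left out, and 34945 with exactly 1 symbol in the platform annotation gave 18193 genes, each by its brightest probe set. No filter on low values was set, since no detection calls were at hand, and precision is limited by how few arrays there are. The sources used here give no scan batch.

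The groups were contrasted across all genes by limma 3.58.1 in R 4.3.3 (lmFit, eBayes, two-sided, Benjamini-Hochberg, threshold 0.05), a procedure also tested on simulated data. The genes and lists were chosen with earlier results of these data known. Every array's value is given for the 11 resident, monocyte and dendritic genes and for the 12 further members with the smallest p, and up to 4 genes by smallest p for other lists. For skeletal muscle, B and plasma, mast cell, T and NK, neutrophil, fibroblast, blood endothelial and keratinocyte markers, scores or counts are given instead. Blood endothelial markers had lower EKO means in 7 of 10 genes, with a median of -0.05. Alternatives were a replicate block, the upper 50% of means, other normalizations, variance models, array weights, other probe set choices and each array left out. Leaving out 2 arrays together was added after seeing the data.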

Additional observations from a re-analysis of the deposited data

How the results depend on the processing

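In all 15 alternatives 0 of the 37 genes passed over all genes, and the medians of the 37 and of the resident, monocyte and dendritic genes kept their negative sign. The number of genes past the threshold among all genes ran from 1 to 42 when single arrays were left out (42 without EKO replicate 2, 2 without WT replicate 2) and was 22 without WT replicate 1 and EKO replicate 2 together. The members lower by unadjusted p numbered 3 to 12 with single arrays left out and 3 with both out, and those higher 0 to 2 and 1. Of all genes, 2.13% to 4.88% were lower and 2.16% to 5.02% higher with single arrays left out, and 2.83% and 4.06% with both out. With the probe set of largest range 1 member, Cd80, was higher by unadjusted p, where 3.22% of all genes were higher. Among genes in the upper 50% of means, which keeps 25 members, the median was -0.43. The members dropped there had differences from -0.34 for Folr2 to -0.03 for Cd80. The resident median ran from -0.83 to -0.48 with single arrays left out and was -0.32 with both out. Those 2 arrays held the highest resident score in WT (0.60) and the lowest in EKO (-0.58). Csf1 and Fcgr2b had an unadjusted p under 0.05 in 15 of 15 alternatives, C1qc in 14, C1qa in 13, F13a1 in 12, C1qb and Ms4a7 in 11, Ccr2 in 9 and Cd163 in 8. None of these 9 changed sign in any alternative, while 15 of the 37, such as Cd80, Cd68 and Stab1, changed sign in at least 1. The 9 were picked by their p on the same arrays, so their steadiness in refits was largely set by that choice. The adjusted p of the 9 ran from 0.199 to 0.998.

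With the replicate number as a block, 13 members were lower by unadjusted p in place of 9, where 3.35% of all genes were lower and 2.84% higher, and 1 gene passed over all genes. The sample titles do not say whether the numbers pair the mice. Same-numbered arrays deviated from their group means with correlations of -0.07, -0.09 and -0.34 across genes, and no array correlated best with its own number. With 3 arrays per group these correlations cannot decide whether the mice were paired. Low signals, such as those of Flt3, Itgam and Cd80 below the array median, limit what these arrays can show.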
